A study of Mus musculus with 48 samples.

Results

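The comparison described here is between tumour-infiltrating CD8 T cells of the Ttad state and of the Ttran state, both carrying the control guide and both taken from aged host mice. Its members are the 2 Ttad and the 2 Ttran libraries labelled A and OTC, 4 of the 48 libraries of the series, read over all 53868 peaks. Open chromatin was measured by ATAC-seq. The assay lets the transposase Tn5 cut DNA wherever nucleosomes leave it free, so that the number of fragments in a peak measures how open that site was. The cells were CD8 T cells of the OT-1 line that expressed Cas9 and carried the CD45.1 allele, and their T cell receptor recognises an ovalbumin peptide. Naive-like spleen cells of this kind had received a guide RNA from a lentiviral vector with an ametrine reporter. They were put into the hosts 1 day before the tumour, and the reporter-positive donor cells, not the hosts' own T cells, were recovered by sorting from B16-OVA tumours, a mouse melanoma that expresses ovalbumin, at day 15 after inoculation. In all 4 libraries the guide was the one the labels call OTC, used here as the control; the letter A in the titles was read as aged host. Each replicate is a pool over independent mice. A combination of guide and state yielded between 5000 and 50000 cells, and which mice went into which pool is not given in the sources used here. Differences between replicates are therefore differences between pools, and p-values measure that spread alone. The same contrast in aged hosts under a guide against Zfp219 and under a guide against Dusp5 (2 Ttad and 2 Ttran libraries each) and the aged OTC libraries of the Tprog and Tterm states (2 each) are used beside it. All Ttad libraries used here come from aged hosts.

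Sorting was on Slamf6, a surface receptor of the SLAM family, and on Tim-3, the inhibitory receptor encoded by Havcr2. Ttran cells were positive for both and Ttad cells for neither. Tprog cells were positive for Slamf6 alone and Tterm cells for Tim-3 alone. In a tumour, CD8 T cells that meet antigen over a long time pass from a progenitor state, which depends on the transcription factor TCF-1 (Tcf7) and keeps the ability to divide, through a transitional, effector-like state towards terminal exhaustion with high inhibitory receptors. The labels call Ttran a transitory, effector-like state and Ttad an age-associated dysfunctional one. Each of these states is known to carry its own set of open enhancers, and factors of the AP-1, NFAT, RUNX, T-box and TCF families bind many of them. In a pool, the share of cells with a site open and the degree of opening per cell cannot be told apart.

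Reads in peaks numbered 8059981 and 10929698 in the Ttad libraries and 9060635 and 8547780 in the Ttran libraries. The chi-square of the reads between replicates was 3.04 per degree of freedom in Ttad and 3.25 in Ttran, within the 2.79 to 4.53 of the 33 replicate pairs of the series. Of the 7 CD8 T cell markers, 6 (all but Cd3g) had a peak, and their summed signal was 8334 and 8594 in Ttad and 8727 and 8454 in Ttran. No peak was counted at the B16 melanoma markers Tyr, Tyrp1, Dct and Sox10, the myeloid markers Csf1r, Lyz2, Adgre1 and Fcgr1 or the B cell markers Cd79a, Cd79b and Ms4a1. The marker count was narrower than the gene assignment used below. It held 2 peaks for the NK cell list, where the assignment gave 8 to Klrb1c alone. Peaks farther from these markers may thus be missed. Of the peaks at the remaining markers of 6 other cell types, 1 peak of the B cell list was lower in Ttad and none was higher. The summed signal of the melanoma list was 1023 and 1295 in Ttad and 1060 and 1063 in Ttran, and that of the myeloid list was 1984 and 1937 against 1993 and 2186. The fibroblast and endothelium list had the largest sum of the 6, with 3686 and 3589 against 3545 and 3702.

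Ttad and Ttran chromatin differed at 4171 of 53868 peaks (7.74% of all peaks tested; limma, adjusted p under 0.05). Signal was higher in Ttad at 1629 of them (3.02%) and lower at 2542 (4.72%). The median difference over all peaks was 0.00 on the log2 scale, with 0.77 over the higher peaks and -0.76 over the lower ones. A difference of at least 1 on the log2 scale, which is a doubling of value + 1, was seen at 596 of the higher and 915 of the lower peaks. The peaks that were called were stronger than most, with a median mean signal of 188 for higher and 200.2 for lower peaks against 91.4 for all. The 2 libraries of each group did not overlap at 4093 of the called peaks (98.1%), against 44.7% of all peaks. The number called fell to 1456 when the 4 libraries were fitted alone, to 1470 with library quality weights, to 2128 after all libraries were thinned to the smallest total, to 2027 without Ttad replicate 1 and to 2648 without Ttran replicate 2. The share of higher peaks among the called was 39.1% and ranged from 27.1% to 44.8% over these settings.

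Havcr2 and Slamf6, which encode the sorting markers, were read as a check of the gates. At Havcr2, 4 of 5 peaks were lower in Ttad. Its promoter peak (chr11:46452770-46455391) had normalized signals of 825 and 934 in Ttad and 1256 and 1304 in Ttran, a log2 fold of -0.54 ± 0.08 (SE), limma adjusted p = 1.94e-06. The strongest of its gene-body peaks had 664 and 764 against 1014 and 985 (-0.49 ± 0.10 (SE), limma adjusted p = 0.000324). A weak peak beyond the gene was the exception, with 15.1 and 53 against 33.1 and 23.9, where the libraries overlapped. Slamf6 had 6 peaks and only 1 of them, in the gene body (chr1:171920836-171921932), was called: 174 and 193 in Ttad and 328 and 239 in Ttran (-0.61 ± 0.18 (SE), limma adjusted p = 0.0249). The Slamf6 promoter peak had 203 and 287 in Ttad and 251 and 308 in Ttran, and these ranges overlapped (log2 fold -0.20 ± 0.18 (SE), limma adjusted p = 0.559). Since the gates used the products of these genes, their differences describe the sort and are no finding. The Slamf6 gene-body call was lost without Ttad replicate 1, Ttad replicate 2 or Ttran replicate 1, with limma adjusted p of 0.182, 0.0536 and 0.358.

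Most of the sites that differed at genes of the effector and cytotoxic program were less open in Ttad than in Ttran. Of 151 peaks at the 20 genes of that list, 30 were lower (19.9%, against 4.72% of all peaks) and 3 were higher (1.99%, against 3.02%), and the median difference was -0.19. The chemokine genes Ccl3, Ccl4 and Ccl5, whose products attract other immune cells, were among them. A peak near Ccl3 (chr11:83639015-83641476) had 1288 and 1459 in Ttad and 2082 and 1931 in Ttran (-0.55 ± 0.07 (SE), limma adjusted p = 1.11e-08). The largest fold of the named effector peaks was 10.3 kb from Ccl5 (chr11:83540839-83541394), with 90.5 and 73.9 against 249.7 and 210.4 (-1.48 ± 0.20 (SE), limma adjusted p = 1.08e-07). Both Ttad libraries lay below both Ttran libraries at each of these sites. Ifng, the gene of interferon-gamma, had the most lower peaks of any gene in the list, 8 of 27, and none higher. Its leading peak (chr10:118468895-118471093), 23 kb from the gene, had 1021 and 1242 in Ttad and 1617 and 1591 in Ttran (-0.51 ± 0.08 (SE), limma adjusted p = 2.36e-06). The protease gene Gzmk had 3 of 4 peaks lower, the leading one (chr13:113169708-113170653) with 129 and 166 against 269 and 320.4 (-0.998 ± 0.15 (SE), limma adjusted p = 1.38e-06). Klrg1, a lectin-like receptor of short-lived effector cells, had 5 of 9 peaks lower, and its gene-body peak had 181 and 259 in Ttad and 376 and 392 in Ttran (-0.82 ± 0.14 (SE), limma adjusted p = 2.36e-05). At the genes of granzyme B, perforin and the factor T-bet no difference was called. No peak of Gzmb, Prf1 or Tbx21 was called by limma, although 1, 2 and 2 had an unadjusted p under 0.05, with folds from -0.59 to 0.13, from -0.35 to 0.39 and from -0.26 to 1.10. The 3 higher peaks were 2 at Cx3cr1, the fractalkine receptor, and the promoter of Zeb2, a repressor active in effector cells, which also had 2 of 21 peaks lower. At the Cx3cr1 promoter (chr9:120067521-120068842) the signal was 366 and 383 in Ttad and 253 and 174 in Ttran (0.83 ± 0.18 (SE), limma adjusted p = 0.000689). Leaving out a single library left 20 to 23 lower and 2 to 4 higher peaks in the list. The Cx3cr1 promoter call was lost without Ttran replicate 2 (limma adjusted p = 0.0984).

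**Figure D1:**
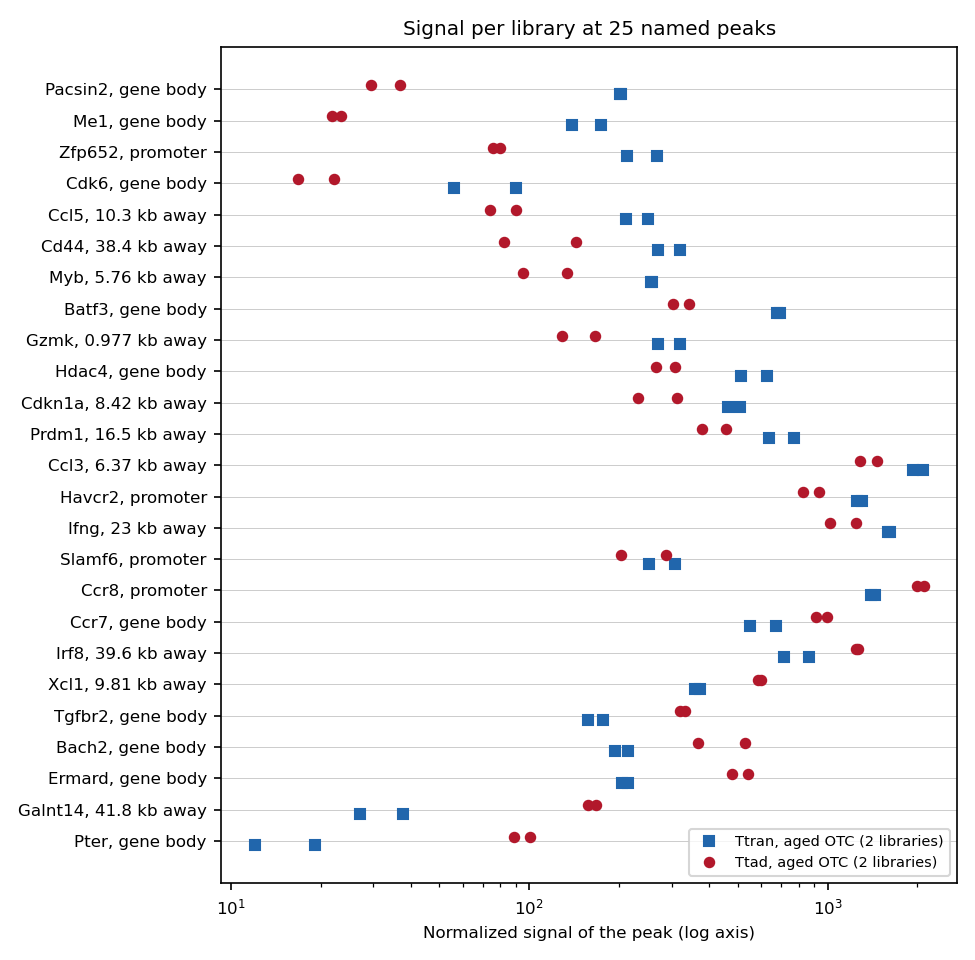
Normalized signal (horizontal, log axis) of 25 named peaks in each of the 2 Ttad libraries (circles) and 2 Ttran libraries (squares) from aged OTC hosts; labels give the gene and the place of the peak. At the Ccl3 peak the Ttad libraries sit below both Ttran libraries, at the Irf8 peak above them, and at the Slamf6 promoter the groups overlap.

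**Figure D2:**
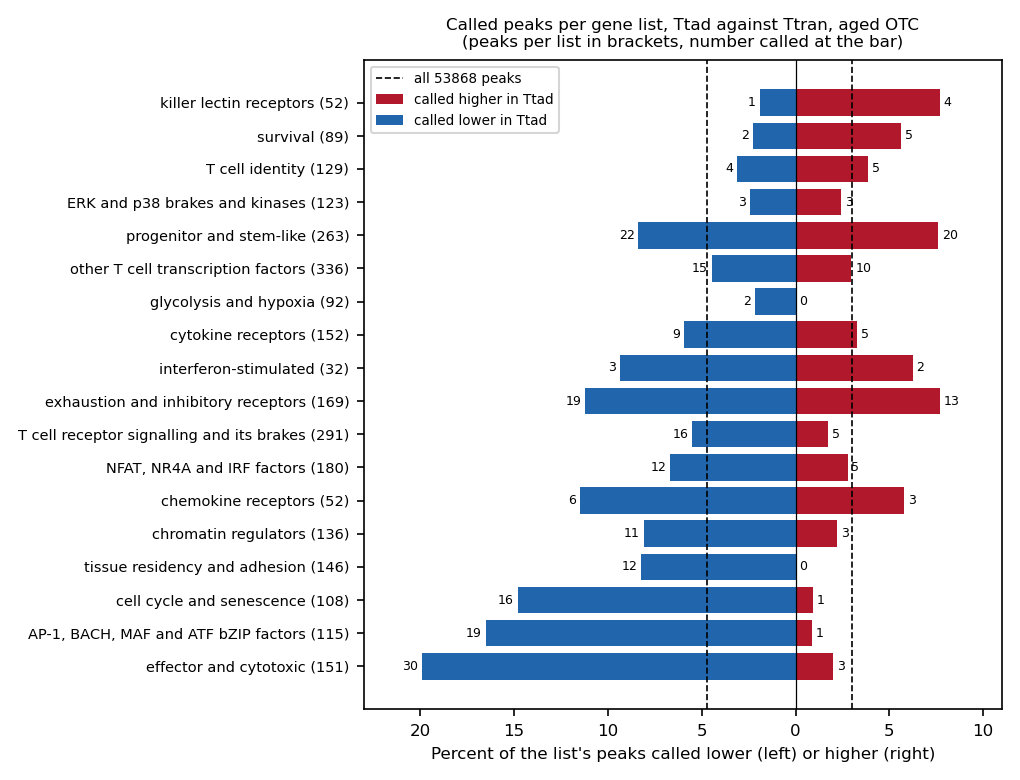
Percent of each gene list's peaks called higher (right) or lower (left) in Ttad than in Ttran, with the number of peaks in the list in brackets, the number called at each bar and the share over all 53868 peaks as dashed lines. The effector list, with 30 of 151 peaks lower, and the bZIP list, with 19 of 115, extend farthest to the left.

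Genes of exhaustion and inhibitory receptors had called peaks in both directions, 13 higher (7.69%) and 19 lower (11.2%) of 169, with a median difference of -0.03. Of the 19 lower peaks, 4 were those of the sorting gene Havcr2, which describe the sort. Besides Havcr2, lower peaks lay at Prdm1, the gene of the repressor Blimp-1, at Entpd1, which encodes the ectonucleotidase CD39, and at Ctla4 and Tox2, an inhibitory receptor gene and a relative of Tox. At the Tox2 promoter the signal was 270.0 and 315 in Ttad and 475 and 442 in Ttran (-0.65 ± 0.14 (SE), limma adjusted p = 0.000842). The leading peak of Prdm1 (chr10:44419519-44420661) had 381 and 457 in Ttad and 770.2 and 638 in Ttran (-0.75 ± 0.14 (SE), limma adjusted p = 7.11e-05). The Entpd1 promoter peak had 300.1 and 341 against 459 and 526 (-0.62 ± 0.12 (SE), limma adjusted p = 0.000158), while a peak in the body of the same gene went the other way, with 349 and 320.3 against 191 and 241 (0.64 ± 0.14 (SE), limma adjusted p = 0.00113). Higher peaks were most numerous at Ikzf2, which encodes Helios, with 6 of 15 higher and 1 lower. Of these, the peak 65.2 kb from Ikzf2 (chr1:69752569-69753455) had 272 and 216 in Ttad and 108 and 148 in Ttran (0.93 ± 0.20 (SE), limma adjusted p = 0.000701). Tox, a nuclear factor needed for the exhausted state, had 3 of 27 peaks higher and none lower, the leading one with 156 and 144 against 79.7 and 54.2 (1.18 ± 0.30 (SE), limma adjusted p = 0.00585). Pdcd1, the gene of PD-1, had 1 of 9 peaks higher and 2 lower, and Lag3 had none called of 4 and none with an unadjusted limma p under 0.05. Counts in this list fell to 4 to 8 higher and 9 to 12 lower when any single library was left out. Without Ttad replicate 1 the limma adjusted p was 0.0504 at Tox2, 0.0506 at Ikzf2 and 0.0641 at Tox. Without Ttran replicate 1 it was 0.0797 at the Entpd1 gene-body peak and 0.0599 at Ikzf2, and without Ttran replicate 2 it was 0.130 at Tox.

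Genes of progenitor and stem-like cells were also split, with 20 higher (7.60%) and 22 lower (8.37%) of 263 peaks and a median difference of 0.10. Of the 22 lower peaks, 1 was that of the sorting gene Slamf6. The higher peaks lay at 12 genes of the list, among them Bach2, Ccr7, Xcl1, Id3, Tcf7, Satb1, Bcl6 and Kit. In the body of Bach2, a repressor that restrains effector programs, the peak at chr4:32267291-32268460 had 527 and 367 in Ttad and 214 and 194 in Ttran (1.11 ± 0.22 (SE), limma adjusted p = 0.000313). The gene-body peak of Ccr7, the receptor that guides cells to lymph nodes, had 993 and 912 against 672 and 550.0 (0.64 ± 0.13 (SE), limma adjusted p = 0.000379). At Xcl1, a chemokine gene of progenitor cells, a peak 9815 bases away had 599 and 586 in Ttad and 358 and 375 in Ttran (0.69 ± 0.15 (SE), limma adjusted p = 0.00128). Id3 had 3 of 7 peaks higher and Tcf7 1 of 12, the latter (chr11:52313585-52314948) with 371 and 352 against 263 and 258 (0.47 ± 0.13 (SE), limma adjusted p = 0.0164). Bach2 and Ccr7 also had 3 of 35 and 1 of 11 peaks lower. In that direction, Myb had 2 of 14, S1pr1 had 4 of 15, Lef1 had 3 of 16 and Foxp1 had 4 of 46 peaks lower. A peak 5.76 kb from Myb, the gene of a transcription factor of stem-like cells, had 95.6 and 134 in Ttad and 259 and 255 in Ttran (-1.17 ± 0.21 (SE), limma adjusted p = 7.38e-05). Il7r, which marks resting and memory cells, had no called peak among 5, and none with an unadjusted limma p under 0.05. Without Ttad replicate 1 the list held only 4 higher and 11 lower peaks, and without any of the other 3 libraries 12 to 14 higher and 11 to 14 lower. The Bach2 peak had a limma adjusted p of 0.0543 without Ttad replicate 1. The Tcf7 peak had 0.126 without Ttad replicate 1, 0.0629 without Ttran replicate 1 and 0.0854 without Ttran replicate 2 (limma adjusted p).

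Peaks at the genes of bZIP factors, which include the AP-1 family, were lower in Ttad far more often than higher: 19 of 115 peaks were lower (16.5%) and 1 was higher (0.870%), with a median difference of -0.13. Batf3, whose product pairs with JUN proteins, had 6 of 9 peaks lower, and the difference was negative at all 9, from -1.25 to -0.21. Its leading peak (chr1:191099893-191100864) had 342 and 303 in Ttad and 693 and 678 in Ttran (-1.09 ± 0.16 (SE), limma adjusted p = 5.19e-07). Maf, which encodes c-MAF, had 3 of 6 peaks lower, and the named peak 19.3 kb away had 82.2 and 108 against 191 and 252 (-1.21 ± 0.23 (SE), limma adjusted p = 0.000115). Nfil3 had 4 of 15 peaks lower. Mafk and Bach1, whose products bind DNA as a pair, had 1 lower peak each, with 751 and 686 against 958 and 974 at Mafk (-0.43 ± 0.11 (SE), limma adjusted p = 0.00469) and 355 and 391 against 481 and 531 at Bach1 (-0.44 ± 0.11 (SE), limma adjusted p = 0.00674). At Batf, the gene of the AP-1 partner best known in activated T cells, 1 of 8 peaks was lower. The 1 higher peak lay near Fosl2, and Jun had 1 of 8 peaks lower. Fos, Junb, Jund and Fosl1, further AP-1 members, had 10, 2, 2 and 1 peaks and none called, with 2 of the Fos peaks lower at an unadjusted limma p under 0.05. The list's lower count was 11 without Ttad replicate 1, 12 without Ttad replicate 2, 10 without Ttran replicate 1, 13 without Ttran replicate 2 and 8 with library quality weights. The Mafk call was lost without Ttad replicate 2 (limma adjusted p = 0.0815), and the Bach1 call without Ttad replicate 1 (0.115) or Ttran replicate 2 (0.101).

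Among NFAT, NR4A and IRF factors, 12 of 180 peaks were lower (6.67%) and 5 were higher (2.78%). A peak 39.6 kb from Irf8 (chr8:120796247-120798925) had the smallest adjusted p of the list and was higher in Ttad, with 1268 and 1246 against 863 and 713 (0.68 ± 0.10 (SE), limma adjusted p = 1.05e-06). Irf8, which encodes an interferon regulatory factor with roles in myeloid and lymphoid cells, had 2 of 18 peaks higher and 1 lower. In the body of Nfatc1, a calcium-dependent factor of T cell activation, the signal was 364 and 262 in Ttad and 493 and 556 in Ttran (-0.76 ± 0.14 (SE), limma adjusted p = 0.000114). Near Irf1, a factor downstream of interferon-gamma, it was 88.9 and 153 against 259 and 201 (-0.96 ± 0.19 (SE), limma adjusted p = 0.000227). The remaining T cell transcription factors had 10 higher and 15 lower of 336 peaks, shares of 2.98% and 4.46% that are near those of all peaks. From that list, Runx1 had only 1 of 26 peaks lower and Runx2 only 1 of 45, and neither had a higher one. These peaks had 572 and 604 against 838 and 808 at Runx1 (-0.49 ± 0.10 (SE), limma adjusted p = 0.000698) and 1085 and 1013 against 1427 and 1320 at Runx2 (-0.39 ± 0.08 (SE), limma adjusted p = 0.000541). A peak 80.6 kb from Gata3 had 43.6 and 19.7 in Ttad and 97.8 and 115 in Ttran (-1.82 ± 0.33 (SE), limma adjusted p = 6.62e-05). The lower count of the NFAT, NR4A and IRF list was 6 without Ttad replicate 1 or Ttran replicate 1 and 7 without either of the others. The higher count of the remaining factors was 3 without Ttran replicate 2, 4 without Ttad replicate 1 and 5 without Ttran replicate 1. At Irf1 the limma adjusted p was 0.128 without Ttad replicate 1.

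Cell cycle and senescence genes had 16 lower peaks of 108 (14.8%) and 1 higher (0.926%), with a median difference of -0.05. Most of the lower peaks were at Cdk6, which encodes a kinase that pairs with D-type cyclins and had 9 of 23 peaks lower and none higher. Its leading peak (chr5:3488283-3489140) had 16.8 and 22.2 in Ttad and 90.3 and 55.8 in Ttran (-1.83 ± 0.36 (SE), limma adjusted p = 0.000255), and a much stronger one (chr5:3494051-3495450) had 1534 and 1450 against 1853 and 1954 (-0.35 ± 0.07 (SE), limma adjusted p = 0.000577). Cdkn1a, the gene of the cell cycle inhibitor p21, had 3 of 7 peaks lower, the named one with 231 and 313 in Ttad and 463 and 509 in Ttran (-0.85 ± 0.13 (SE), limma adjusted p = 3.09e-06). Lower peaks thus lay both at a kinase gene and at an inhibitor gene. A peak 88.7 kb from Myc had 146 and 166 against 268 and 360.3 (-0.99 ± 0.19 (SE), limma adjusted p = 0.00014), and a peak near Cdkn2b, which encodes p15, had 369 and 266 against 505 and 459 (-0.62 ± 0.15 (SE), limma adjusted p = 0.00422). The higher peak lay in Ccnd1, the cyclin D1 gene, with 171 and 254 in Ttad and 91.8 and 142 in Ttran (0.86 ± 0.22 (SE), limma adjusted p = 0.00632). No peak of Mki67, Top2a, Cdkn2a or Trp53 was called by limma, and 1 of them, at Top2a, had an unadjusted p under 0.05. With a single library left out, 11 to 14 peaks of the list were lower. The Cdkn2b call was lost without Ttad replicate 2 (limma adjusted p = 0.220) or Ttran replicate 1 (0.0629), and the Ccnd1 call without the same libraries (0.204 and 0.232).

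The survival list had 5 higher (5.62%) and 2 lower (2.25%) of 89 peaks, against 3.02% and 4.72% of all peaks. Of the higher ones, 4 lay at Bcl2l11, the gene of the pro-apoptotic protein BIM, which also had 1 of the 2 lower peaks among its 14. Its promoter peak (chr2:128125440-128128063) had 1487 and 1466 in Ttad and 1151 and 1194 in Ttran (0.33 ± 0.08 (SE), limma adjusted p = 0.00289), and a weaker peak 17 kb away had 65.4 and 62.8 against 10.5 and 19.1 (2.095 ± 0.49 (SE), limma adjusted p = 0.00259). The fifth was 26.2 kb from Bcl2, whose product opposes BIM, with 119 and 89.9 against 46.6 and 28.7 (1.47 ± 0.36 (SE), limma adjusted p = 0.00372). Without Ttad replicate 1 or without Ttran replicate 1, 2 of the list's peaks were called higher, and the lower count was 0 or 1 without any of the 4 libraries. The limma adjusted p of the weaker Bcl2l11 peak was 0.0745 without Ttran replicate 1, and that of the Bcl2 peak was 0.0828 without Ttad replicate 1 and 0.108 without Ttran replicate 2.

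Chemokine receptor genes differed from each other. Of their 52 peaks, 3 were higher (5.77%) and 6 were lower (11.5%). The promoter of Ccr8, a receptor known from skin-homing and regulatory T cells, was more open in Ttad, with 2096 and 1988 against 1443 and 1400 (0.52 ± 0.09 (SE), limma adjusted p = 1.34e-05). Ccr2, the receptor for monocyte-attracting chemokines, had 3 of 5 peaks lower, and its gene-body peak had 112 and 137 in Ttad and 254 and 212 in Ttran (-0.90 ± 0.19 (SE), limma adjusted p = 0.000841). Cxcr4, the receptor for CXCL12, had 3 of 12 lower, and its promoter peak had 614 and 659 against 818 and 829 (-0.37 ± 0.10 (SE), limma adjusted p = 0.0101). Ccr6 gave the other 2 higher peaks, each of which lost its call without at least 3 of the 4 libraries in turn. The higher count was 1 without Ttad replicate 1, Ttad replicate 2 or Ttran replicate 1. The 6 lower peaks became 3 without Ttad replicate 1 and 1 without Ttran replicate 2. In the same settings the limma adjusted p of the Cxcr4 promoter was 0.130 and 0.0651.

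In the tissue residency and adhesion list 12 of 146 peaks were lower (8.22%) and none was higher in this test (limma, adjusted p under 0.05), with 5 higher at an unadjusted p under 0.05, while edgeR called 10 lower and 1 higher. A peak 38.4 kb from Cd44, the hyaluronan receptor of activated T cells, had 82.2 and 143 in Ttad and 319 and 269 in Ttran (-1.43 ± 0.22 (SE), limma adjusted p = 2.83e-06). The promoter peak of Runx3, a factor of CD8 T cell identity and residency, had 2368 and 2481 against 2911 and 3077 (-0.30 ± 0.06 (SE), limma adjusted p = 0.000317). Near Itga1, which encodes the collagen-binding integrin CD49a, the signal was 41.9 and 35.7 against 90.3 and 171 (-1.66 ± 0.36 (SE), limma adjusted p = 0.00109). Itgae and Cxcr6, which mark resident cells, had no called peak (limma), with 1 Itgae peak higher at an unadjusted p under 0.05. Leaving out a single library left 4 to 8 lower peaks in the list, 4 without Ttran replicate 1 and 5 without Ttad replicate 1 or Ttran replicate 2. The Itga1 call was lost without Ttran replicate 2 (limma adjusted p = 0.0915).

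Signalling lists were nearer to the background of all peaks. T cell receptor signalling genes and their brakes had 5 higher (1.72%) and 16 lower (5.50%) of 291 peaks, and only 2 lower ones without Ttad replicate 1, 7 without Ttran replicate 1 and 10 without Ttran replicate 2. The higher count was 2 without Ttad replicate 1 or Ttran replicate 2. In the body of Ptpn2, a phosphatase that limits receptor and cytokine signals, the signal was 1358 and 1392 in Ttad against 1089 and 998 (0.40 ± 0.08 (SE), limma adjusted p = 0.000692). Dusp5, an ERK phosphatase and the target of a guide used elsewhere in the study, had 3 of 17 peaks lower, the leading one with 1534 and 1590 in Ttad and 2028 and 2178 in Ttran (-0.43 ± 0.08 (SE), limma adjusted p = 7.22e-05). These were all of the lower peaks of the ERK and p38 list, which had 3 higher (2.44%) and 3 lower (2.44%) of 123. The 3 higher became 0 without Ttad replicate 1, 1 without Ttad replicate 2 or Ttran replicate 2, and 0 with edgeR, with quality weights or with the 4 libraries fitted alone. Cytokine receptor genes had 5 higher (3.29%) and 9 lower (5.92%) of 152 peaks. The higher count was 2 without Ttad replicate 1, Ttran replicate 1 or Ttran replicate 2, and the lower count was 4 without Ttran replicate 2. Tgfbr2, the gene of a TGF-beta receptor chain, was among the higher, with 320.3 and 333 against 176 and 158 (0.97 ± 0.20 (SE), limma adjusted p = 0.000686). Ifngr1 and Il2ra were among the lower, with 568 and 478 against 781 and 773 at Ifngr1 (-0.57 ± 0.11 (SE), limma adjusted p = 0.000111) and 253 and 228 against 334 and 502 at Il2ra (-0.77 ± 0.16 (SE), limma adjusted p = 0.000612). The Il2ra call was lost without Ttran replicate 2 (limma adjusted p = 0.132).

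Chromatin regulators had 3 higher (2.21%) and 11 lower (8.09%) of 136 peaks. A peak in Hdac4, the gene of a histone deacetylase, had 265 and 307 in Ttad and 624 and 512 in Ttran (-0.98 ± 0.15 (SE), limma adjusted p = 1.53e-06), and a peak 81.3 kb from Tet2, which encodes an enzyme of DNA demethylation, had 148 and 123 against 308 and 249 (-1.03 ± 0.22 (SE), limma adjusted p = 0.000673). The list's lower count was 3 without Ttad replicate 1 or Ttran replicate 2, and its higher count was 0 without Ttran replicate 2 and 1 without Ttad replicate 2. Killer lectin receptors had 4 higher (7.69%) and 1 lower (1.92%) of 52 peaks, against 3.02% and 4.72% of all peaks. Interferon-stimulated genes had 2 higher (6.25%) and 3 lower (9.38%) of 32. Glycolysis and hypoxia genes had 0 higher and 2 lower (2.17%) of 92 by limma. For glycolysis and hypoxia genes edgeR also called 0 and 2, and 6 and 10 had an unadjusted limma p under 0.05. None of the peaks of the killer lectin or interferon lists was called when the 4 libraries were fitted alone, and no higher peak of either list was called without Ttad replicate 1. T cell identity genes had 5 higher and 4 lower of 129 peaks, with 1 higher without Ttad replicate 2 and 2 higher and 2 lower without Ttran replicate 1. A peak in Cd2, an adhesion receptor of T cells, had 699 and 834 in Ttad and 1082 and 1086 in Ttran (-0.50 ± 0.09 (SE), limma adjusted p = 0.0001).

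The called peak with the highest signal in the T cell identity list was in the body of Thy1, which encodes the surface protein CD90 (chr9:44046603-44047436). It had 4884 and 4611 in Ttad and 2944 and 3051 in Ttran (0.66 ± 0.14 (SE), limma adjusted p = 0.001). The same peak had 122 to 135 in aged OTC Tprog, 829 to 959 in aged OTC Tterm, 567 to 668 in aged Zfp219 Ttad, 3153 to 3158 in aged Zfp219 Ttran and 172 to 208 in aged Dusp5 Ttad. Over the 42 libraries outside aged OTC Ttad, aged OTC Ttran and aged Zfp219 Ttran, it ran from 117 to 959. Replicates of a group lay close together while groups with the same sorted state differed by more than 10 times, and what sets this peak's level was not tested.

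Outside the lists, the largest folds were at weak peaks. Among peaks lower in Ttad with a mean of at least 50 in Ttran, the named folds ran from -2.802 near Hes1 to -2.34 near Septin9. A gene-body peak of Me1, which encodes cytosolic malic enzyme, had a signal of 21.8 and 23.4 in Ttad and 174 and 139 in Ttran (-2.73 ± 0.27 (SE), limma adjusted p = 3.17e-12). A peak in Pacsin2, whose product bends membranes, had 36.9 and 29.6 against 203 and 201 (-2.58 ± 0.31 (SE), limma adjusted p = 2.44e-09). These peaks were called in all 25 fits that were run. Some of those fits left out only libraries of the other guides, which leaves the OTC difference unchanged. A peak in Hdac8, on the X chromosome, had 18.4 and 24.6 in Ttad and 120.3 and 107 in Ttran (-2.36 ± 0.38 (SE), limma adjusted p = 6.05e-06). Among peaks higher in Ttad, the named folds ran from 3.83 in Tmem168 to 2.36 in Bbs9. The Tmem168 peak had 53.7 and 61.6 in Ttad and 0 and 15.9 in Ttran, so its fold depends on the pseudocount. Better supported by reads was a peak in Pter, with 100.6 and 88.7 against 12 and 19.1 (2.56 ± 0.58 (SE), limma adjusted p = 0.00183). A peak 41.8 kb from Galnt14, which encodes a sugar transferase of the Golgi, had 158 and 168 in Ttad and 37.6 and 27.1 in Ttran (2.31 ± 0.48 (SE), limma adjusted p = 0.000551).

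Several genes carried called peaks in clusters. On the higher side, 7 of 8 peaks assigned to the predicted gene Gm40363, in a stretch from 47685039 to 47763836 on chromosome 6, were higher by small amounts, the largest being 0.42. Its leading peak had 1162 and 1131 in Ttad and 856 and 861 in Ttran (0.42 ± 0.08 (SE), limma adjusted p = 0.000116). Btbd9 had 6 of 17 peaks higher, Prkca, which encodes protein kinase C alpha, 5 of 37, and Tbc1d4, a regulator of glucose transporter traffic, 5 of 11. At Ermard 4 of 10 peaks were higher, and its gene-body peak had 476 and 542 against 214 and 204 (1.279 ± 0.27 (SE), limma adjusted p = 0.000738). On the lower side, Aopep had 9 of 26, Snx29 8 of 21, Xylt1 8 of 16 and Prex1 7 of 32. In the body of Prex1, which encodes an activator of Rac, the leading peak had 647 and 695 in Ttad and 1029 and 1065 in Ttran (-0.64 ± 0.10 (SE), limma adjusted p = 1.09e-06).

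Higher and lower peaks lay in different places. A promoter window was taken as the 250 bases before and 50 after a RefSeq gene start, and 9254 of all peaks (17.2%) overlapped such a window. Of the peaks higher in Ttad, 424 (26.0%) were at promoters, and of the lower ones, 136 (5.35%). Put the other way, 4.58% of promoter peaks were higher and 1.47% were lower, against 2.91% and 5.38% of the peaks in gene bodies. Promoter differences were small, with a median of 0.45 among the higher and -0.35 among the lower, against 0.97 and -0.80 in gene bodies. Over all promoter peaks the median difference was 0.08, and over gene-body peaks it was -0.02. The share of a library's summed signal that lay in promoter peaks was 39.2% and 39.0% in Ttad and 37.2% and 37.5% in Ttran, and the part that this difference between libraries has in the promoter calls was not tested. Promoters made up 27.4% of the higher peaks with an equal total in peaks, 22.3% with quantile normalization and 24.6% with edgeR on the recovered reads. In the fit of the 4 libraries alone they were 87 of 485 higher peaks (17.9%), near the 17.2% of all peaks, and 55 of 971 lower peaks (5.66%). Under the other guides promoters were a smaller share of the higher peaks than of all peaks, 10 of 174 (5.75%) under Zfp219 and 103 of 832 (12.4%) under Dusp5. Among lower peaks they were 7 of 258 (2.71%) under Zfp219 and 124 of 1643 (7.55%) under Dusp5.

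**Figure D3:**
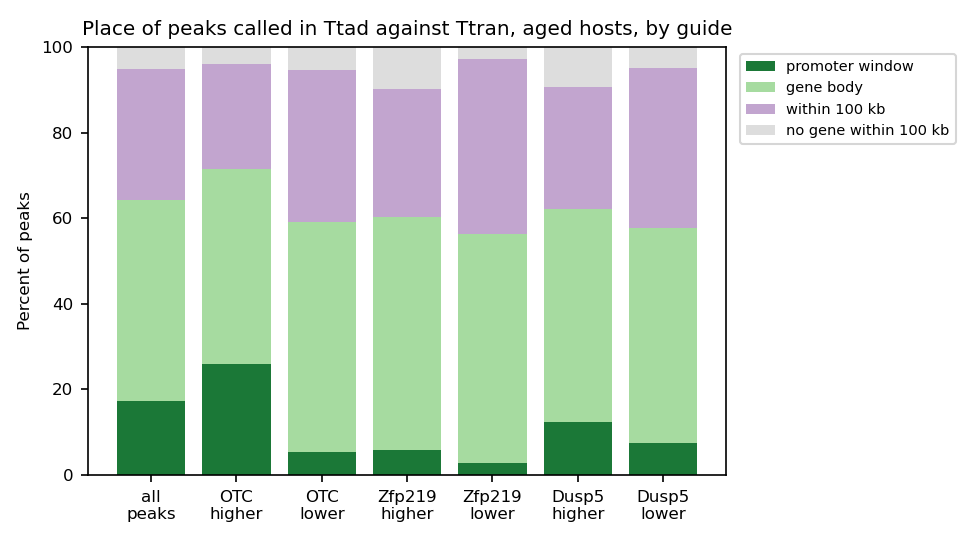
Percent of peaks (vertical) that overlap a promoter window, lie in a gene body, lie within 100 kb of a gene or have no gene that near, for all peaks and for those called higher or lower in Ttad than in Ttran under each guide. Promoters make up 26.0% of the peaks higher under OTC, 5.35% of those lower, and 17.2% of all.

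The promoter peaks with the largest folds were Adra2a, which encodes an adrenergic receptor, and Zfp652, which encodes a zinc-finger protein. At Adra2a the signal was 82.2 and 128 in Ttad and 27.1 and 51 in Ttran (1.44 ± 0.34 (SE), limma adjusted p = 0.00248), with a limma adjusted p of 0.0910 without Ttad replicate 2 and 0.137 without Ttran replicate 1. At the window of Zfp652 it was 75.5 and 80.1 against 268 and 212 (-1.60 ± 0.17 (SE), limma adjusted p = 5.87e-11). Other named promoters were higher at 2010003K11Rik, Acsl6, B4galnt2 and Epb41l1, with folds from 1.27 to 1.38, and lower at Hoga1, Dusp13, Cfap74 and Pilrb1, with folds from -1.50 to -0.93. Of these, the Acsl6, B4galnt2, Dusp13 and Cfap74 peaks were not called when the 4 libraries were fitted alone, where the limma adjusted p was 0.114, 0.153, 0.0773 and 0.0925.

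The 250 bases before the start are shown for 5 promoters whose peaks were called. Havcr2 is the sorting gene, Sytl1, Cx3cr1 and Ccr8 were called in the same direction under all 3 guides, and Adra2a had the largest promoter rise. Sequences are from RefSeq (GRCm38.p6, the assembly of mm10), written 5′ to 3′ on the strand of the gene, with capitals for matches to any of 11 motifs searched on both strands: AP-1 TGANTCA, TCF ATCAAAG, RUNX TGTGGT and TGCGGT, T-box AGGTGTGA, NR4A AAAGGTCA, NFAT GGAAAA, ETS CCGGAAGT, KLF GGGTGTGG, IRF GAAA-N-TGAAA, CRE TGACGTCA and E-box CAGCTG. KLF and RUNX matches can overlap, as they do in Havcr2.
Havcr2, chr11:46454681-46454930, plus strand: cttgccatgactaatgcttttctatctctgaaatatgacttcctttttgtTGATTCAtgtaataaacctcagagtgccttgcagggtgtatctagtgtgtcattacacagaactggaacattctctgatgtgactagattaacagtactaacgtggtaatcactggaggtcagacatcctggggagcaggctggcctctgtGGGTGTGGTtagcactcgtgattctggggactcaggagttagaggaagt
Sytl1, chr4:133263088-133263337, minus strand: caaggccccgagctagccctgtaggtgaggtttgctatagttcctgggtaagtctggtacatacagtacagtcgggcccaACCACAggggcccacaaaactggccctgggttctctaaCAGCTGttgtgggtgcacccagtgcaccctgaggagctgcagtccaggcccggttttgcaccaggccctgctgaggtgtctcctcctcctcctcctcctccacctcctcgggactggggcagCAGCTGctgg
Cx3cr1, chr9:120068297-120068546, minus strand: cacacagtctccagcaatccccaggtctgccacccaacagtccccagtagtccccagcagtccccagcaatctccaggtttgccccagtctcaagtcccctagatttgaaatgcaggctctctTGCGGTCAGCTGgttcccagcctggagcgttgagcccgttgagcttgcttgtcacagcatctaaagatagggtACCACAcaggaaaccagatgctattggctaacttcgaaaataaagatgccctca
Ccr8, chr9:120091883-120092132, plus strand: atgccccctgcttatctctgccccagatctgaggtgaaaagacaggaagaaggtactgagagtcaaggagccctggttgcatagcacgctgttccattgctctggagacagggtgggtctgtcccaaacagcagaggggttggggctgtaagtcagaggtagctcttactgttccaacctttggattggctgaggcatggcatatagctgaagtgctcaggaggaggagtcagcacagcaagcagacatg
Adra2a, chr19:54045009-54045258, plus strand: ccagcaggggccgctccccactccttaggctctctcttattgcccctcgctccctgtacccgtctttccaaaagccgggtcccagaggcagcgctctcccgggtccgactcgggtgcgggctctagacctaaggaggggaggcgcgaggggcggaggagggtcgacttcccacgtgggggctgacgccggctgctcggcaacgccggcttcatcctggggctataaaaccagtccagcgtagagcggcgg
The Havcr2 window held an AP-1 match and a KLF match that overlaps a RUNX match. The Cx3cr1 window held a RUNX match directly followed by an E-box and a further RUNX match, and the Sytl1 window a RUNX match and 2 E-boxes. No motif of the set was found in the Ccr8 and Adra2a windows, which says only that these letters are not in these bases. The windows also differ in composition, with 44.8% G and C in Havcr2, 53.6% in Cx3cr1 and Ccr8, 61.6% in Sytl1 and 67.6% in Adra2a. The Adra2a window held 22 CG pairs, and the Ccr8 window 1.

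Over all promoter windows the motif shares differed between higher and lower peaks in a few cases. An AP-1 match was found in 6.75% of all 32851 windows of 250 bases, in 4.33% of the 13566 windows under a peak, in 11.7% of the 240 windows under a peak lower in Ttad and in 3.41% of the 615 windows under a higher one. RUNX matches were in 18.8% of windows under a peak, 26.2% of those lower and 18.4% of those higher. KLF matches were in 3.50%, 6.67% and 3.58%, and NFAT matches in 17.5%, 17.5% and 17.6%. ETS and CRE matches went the other way, at 6.05%, 3.75% and 7.97% for ETS and 2.8%, 1.67% and 3.58% for CRE. The windows also differed in base composition, with a median of 63.2% G and C and 20 CG pairs under higher peaks against 55.0% and 9 under lower ones and 60.8% and 17 under any peak. These shares are descriptions of letters in the reference, and the part of composition in them was not tested.

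The same contrast was read in aged hosts under the 2 other guides, whose libraries do not enter the OTC difference, although all groups share the spread in the fit. Under the Zfp219 guide 432 peaks were called (0.802%) and under the Dusp5 guide 2475 (4.59%). Leaving out any 1 of their own libraries left 97 to 154 under Zfp219 and 853 to 1513 under Dusp5, and fitting each set of 4 libraries alone gave 1195 and 1262. Of the 1629 peaks higher under OTC, 1244 had a difference above 0 under Zfp219 and 1244 under Dusp5. That is 76.4% in each case, against 51.1% and 50.5% of all peaks. Of the 1629, 44 and 151 were called higher there, 2.70% and 9.27% against 0.323% and 1.54% of all peaks. Of the 2542 lower peaks, 1982 were below 0 under Zfp219 (78.0%) and 2149 under Dusp5 (84.5%), against 48.9% and 49.5% of all peaks. Of the 2542, 163 and 628 were called lower, 6.41% and 24.7% against 0.479% and 3.05% of all peaks. The difference between Ttad and Ttran was itself different from that under OTC at 125 peaks for Zfp219 (0.232%) and at 120 for Dusp5 (0.223%; limma interaction, adjusted p under 0.05), counts that ran from 16 to 212 and from 27 to 291 with a single library left out. Calls in the opposite direction numbered 2 under Zfp219 and 15 under Dusp5. Across all peaks, which are not independent of each other, the Pearson correlation of the OTC differences was 0.22 with those under Zfp219 and 0.23 with those under Dusp5.

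Peaks called in 1 direction under all 3 guides numbered 29 higher and 102 lower. The higher ones included the Irf8, Ccr8, Bach2, Cx3cr1 and Ermard peaks given above. At the Irf8 peak the Zfp219 libraries had 929 and 868 in Ttad and 587 and 581 in Ttran (0.62 ± 0.10 (SE), limma adjusted p = 6.35e-05). The Dusp5 libraries had 1077 and 1165 in Ttad and 676 and 647 in Ttran (0.76 ± 0.10 (SE), limma adjusted p = 1.13e-07). In all 3 guides both Ttad libraries lay above both Ttran libraries at this site. At the Ccr8 promoter the log2 fold was 0.42 ± 0.09 (SE), limma adjusted p = 0.00325 under Zfp219 and 0.30 ± 0.09 (SE), limma adjusted p = 0.0243 under Dusp5. The lower ones included sites at Ccl3, Gzmk, Batf3, Maf, Cdkn1a, Myb, Me1 and Pacsin2. The Batf3 peak had 153 and 171 against 338 and 299 under Zfp219 (-0.97 ± 0.16 (SE), limma adjusted p = 6.35e-05) and 305 and 282 against 570.5 and 559.9 under Dusp5 (-0.94 ± 0.16 (SE), limma adjusted p = 2.43e-05). The Cdkn1a peak differed by -0.73 ± 0.13 (SE), limma adjusted p = 0.000642 under Zfp219 and by -1.09 ± 0.13 (SE), limma adjusted p = 1.01e-08 under Dusp5, and the Ccl3 peak by -0.35 ± 0.07 (SE), limma adjusted p = 0.00256 and -0.61 ± 0.07 (SE), limma adjusted p = 1.5e-09. The promoter of Hspa1a, the gene of the heat-shock protein HSP70, was also lower under all 3 guides. At Havcr2 the promoter difference was -0.59 ± 0.08 (SE), limma adjusted p = 6.04e-07 under Dusp5, while under Zfp219 it was -0.27 ± 0.08 (SE), limma adjusted p = 0.0978.

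**Figure D4:**
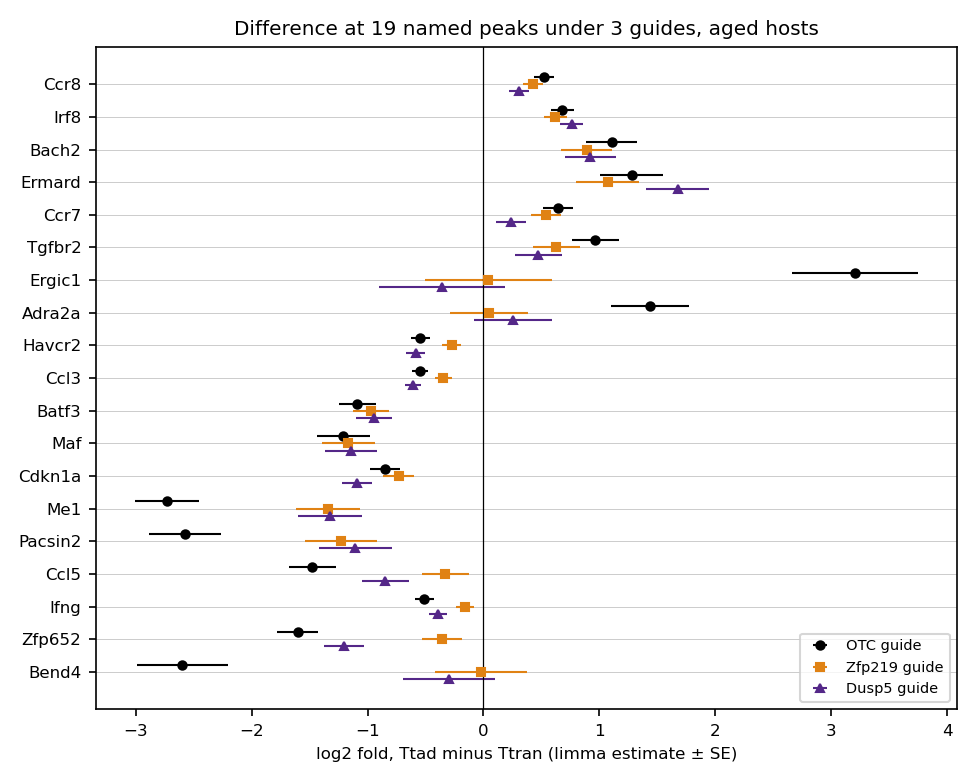
Log2 fold, Ttad minus Ttran (horizontal, limma estimate with its SE as the bar), at 19 named peaks in aged hosts under the OTC, Zfp219 and Dusp5 guides, each from 2 libraries a state. The 3 guides lie close together at Ccr8, Irf8, Batf3 and Maf, while at Ergic1 and Bend4 the Zfp219 and Dusp5 estimates lie near 0.

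The levels of the called peaks in the remaining aged OTC states, whose libraries enter the calls only through the shared spread, were read as a description. Over the 1629 peaks higher in Ttad, the median log2 signal was 7.82 and 7.83 in the Tprog libraries and 7.41 and 7.45 in the Tterm libraries. Over the 2542 lower peaks it was 7.33 and 7.32 in Tprog and 7.83 and 7.82 in Tterm. Over all peaks the medians of the 4 states lay between 6.51 and 6.59. The peaks higher in Ttad were thus more open in Tprog than in Tterm, and the lower ones less open. Tested peak by peak between Tprog and Tterm in aged hosts (limma, adjusted p under 0.05), 20.1% of all peaks differed, and 363 of the higher peaks were called higher in Tprog (22.3%, against 8.88% of all peaks) and 60 were called higher in Tterm (3.68%, against 11.2%). Of the lower peaks, 1220 were called higher in Tterm (48%) and 121 higher in Tprog (4.76%). In young OTC hosts, where 26.5% of all peaks differed, 399 of the higher peaks were called higher in Tprog (24.5%, against 13.9% of all) and 196 in Tterm (12%, against 12.6%), while of the lower peaks 970 were called higher in Tterm (38.2%) and 280 in Tprog (11%). The peaks called between Ttad and Ttran were stronger than most, and the part of signal strength in these shares was not tested. Bach2 is an example of the higher set, at 354 and 320.3 in Tprog and 146 and 170.5 in Tterm. Ifng is one of the lower set, at 891 and 878 in Tprog and 1707 and 1617 in Tterm. Irf8 did not follow this order, with 818 and 971 in Tprog and 1112 and 1104 in Tterm, and at Batf3 the states lay close together, with 388 and 363 against 403 and 441.

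**Figure D5:**
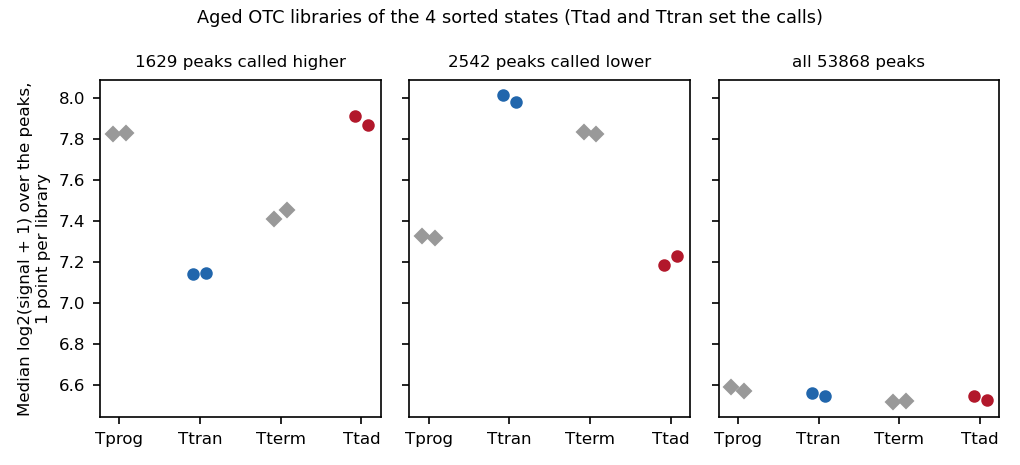
Median log2(signal + 1) (vertical) over the peaks called higher in Ttad, the peaks called lower and all peaks, 1 point for each aged OTC library of the 4 sorted states; the Ttad and Ttran libraries set the calls and the Tprog and Tterm libraries (diamonds) did not. At the higher peaks Tprog lies near Ttad, at 7.82 and 7.83, and at the lower peaks Tterm lies nearer Ttran, at 7.83 and 7.82.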

How the data were processed

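The deposited table holds a normalized signal (coverage) for each of 53868 peaks in 48 ATAC-seq libraries. Per the submitters' processing notes, reads were aligned to mm10 and handled with Bowtie2 2.2.9, SAMtools 1.3.1, Picard 2.8.0, MACS2 2.1.1 and DESeq2 1.28.1. Peaks were shared by all libraries and the values were divided by size factors by the authors, so whole reads could be recovered for 100% of values (tolerance 0.001) in 47 libraries. Values of young Zfp219 Tprog replicate 1 were also 100% whole at this tolerance, but this library did not pass a separate check for recovery. It was left out of the edgeR and DESeq2 tests and kept in the fit of thinned reads.

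Differences were tested on log2(value + 1) with limma 3.58.1 in R 4.3.3, in one fit of all 48 libraries by group, with p-values adjusted by Benjamini-Hochberg over all peaks and called under 0.05. Each SE is that of the limma estimate. Alternatives were a pseudocount of 8, other scalings, edgeR 4.0.16 and DESeq2 1.42.0 on recovered reads, thinned reads, fewer groups, quality weights, a replicate block and leaving out single libraries. Counts were simulated for all 48 libraries, with changes placed in aged OTC Ttad and only at peaks above a minimum mean signal. There limma recovered 59% of 200 changes of 2-fold among 53868 peaks, with 114 false calls. It recovered 35% of 200 changes of 1.5-fold, with 124 false calls. edgeR recovered 52% and 27%, with 23 and 20 false calls. In this simulation the share of false calls among the limma calls was thus many times the 0.05 set as the threshold. At 1.5-fold, limma made more false calls than true ones. For edgeR the share was also above 0.05.

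A peak was given to the gene whose body or promoter window (250 bases before to 50 after a RefSeq start, GRCm38.p6) it overlapped, else to the nearest gene within 100 kb; exons and introns were not told apart. Assignment does not show that a site controls the gene. Named peaks were up to 12 a direction by fold with a mean of at least 50 in the higher group, up to 4 a list by adjusted p, up to 5 promoters a direction, all peaks of Slamf6 and Havcr2, and the genes with most called peaks, ties included. Other genes, Klrg1, Id3, Tcf7, Tox, Satb1, Bcl6, Kit, Hspa1a and further list members among them, were named after their values were seen. The members and lists were chosen with earlier results of these data known. Results for some list members are not reported here.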

Additional observations from a re-analysis of the deposited data

Results flagged for a closer look

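At 8 named peaks the difference between Ttad and Ttran was itself different under another guide, by a limma interaction test with p adjusted over all 53868 peaks. These peaks were named for their OTC difference, which also enters the interaction, so the naming favours such a result. In each case the value is the log2 fold under the other guide minus that under OTC. At Thy1 it was -3.0195 under Zfp219 (limma adjusted p = 1.05e-21) and -0.9244 under Dusp5 (limma adjusted p = 0.0188). The Ergic1 peak gave -3.1594 under Zfp219 and -3.5595 under Dusp5. Its OTC signal was 68.7 and 102 in Ttad and 10.5 and 6.38 in Ttran, while under Zfp219 it was 29.7 and 18.8 in Ttad and 21.4 and 24.5 in Ttran. Near Bend4, 5.03 and 16 against 49.6 and 73.3 under OTC, the values were 2.5768 under Zfp219 and 2.3017 under Dusp5. The Cblb interaction is at a weak peak with 3.35 and 8.62 against 37.6 and 22.3 and gave 3.4311 and 3.5038. Under Zfp219 alone, the value was 1.2471 at the Zfp652 window, 1.1451 near Ccl5 and -3.8142 near Ets1, where the OTC signal was 26.8 and 18.5 against 9.03 and 0. Under Dusp5 alone, it was 1.2959 near Klra5. Outside Thy1, the limma adjusted p of these interactions ran from 0.0088 at Zfp652 to 0.0495 near Ccl5. The OTC calls at Ets1, Cblb and Klra5 were lost when the 4 libraries were fitted alone (limma adjusted p = 0.125, 0.129 and 0.248).

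Over all peaks the interaction was called at 125 for Zfp219 against OTC (0.232%) and at 120 for Dusp5 against OTC (0.223%). Of these, 108 and 80 were also called between Ttad and Ttran under OTC, as were 7.74% of all peaks. The OTC difference is part of each interaction, so this overlap is partly built in. The OTC libraries enter both interactions, so the 125 and the 120 are not independent of each other. Both counts depend on the setting, with 16 to 212 for Zfp219 and 27 to 291 for Dusp5 when a single library is left out. For Dusp5, some peaks with no gene within 100 kb had far smaller adjusted p than the 8 named peaks. A 45855-base peak on the unplaced scaffold JH584304 gave 0.826 for Dusp5 (limma interaction adjusted p = 1.46e-39). The same peak gave 0.321 for Zfp219 (limma interaction adjusted p = 4.99e-12).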

How the results depend on the processing

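With 2 libraries a group, the number of peaks called depended on the setting, and no named peak changed sign where it was called. Under OTC more peaks were lower than higher in the settings given here. The balance of directions was less stable elsewhere. Under Zfp219 the share of higher peaks was 40.3%, and 57.5% with the 24 aged libraries alone. For both interactions the more frequent direction changed when some single libraries were left out. For Ttad against Ttran under OTC, 4171 peaks became 1456 with the compared groups fitted alone (1417 of the 4171), 1470 with library quality weights (all among the 4171) and 2128 after thinning reads to the smallest total. Leaving out a single library gave 2027 to 2899, the lowest without Ttad replicate 1, and the library left alone in its group is assumed to vary like the others. Pseudocount, removal of the weakest peaks, scaling, edgeR and DESeq2 gave 3236 to 4226. Under Zfp219, 432 became 1195 for the groups alone, 1582 with quality weights, 1017 with DESeq2, 216 after thinning and 97 to 154 without 1 library. Under Dusp5, 2475 became 1262, 1599 with quality weights, 1225 after thinning and 853 to 1513 without 1 library.

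The interaction of Zfp219 with OTC, 125 peaks, became 16 with quantile normalization, 52 with an equal total in peaks, 12 for the groups alone, 53 with the 24 aged libraries alone, 73 with quality weights, 276 with DESeq2, 30 after thinning and 16 to 212 without 1 library, lowest without Zfp219 Ttad replicate 1. The interaction of Dusp5, 120 peaks, became 18 for the groups alone, 38 with the 24 aged libraries, 15 with quality weights, 57 with edgeR, 18 after thinning and 27 to 291 without 1 library. The causes were not tested.

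Replicate numbers did not pair the libraries: the differences between replicates 1 and 2 of any 2 states of a guide correlated at -0.01 to 0.01. With the replicate block, the aged libraries gave 3745 peaks under OTC, 379 under Zfp219 and 2063 under Dusp5, and 45 and 40 for the interactions. Of 124 named peaks called, 41 lost the call without Ttad replicate 1, 24 with the groups alone and 30 with quality weights. In simulated libraries without any change, with 3 times the spread of counting, limma called 41 of 53868 peaks and edgeR called 0, and 10.5% of unchanged peaks had a limma p under 0.05.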

Other observations

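Peaks assigned to small nuclear RNA genes, the RNAs of the spliceosome, were lower in Ttad at 13 of 56 (23.2%, against 4.72% of all peaks) and higher at 0 in the limma test, with a median difference of -0.17. Under Dusp5 20 of them were lower and 0 higher, and under Zfp219 0 and 0. Transfer RNA genes had 3 higher (1.97%) and 4 lower (2.63%) of 152 peaks under OTC, and 0 higher and 15 lower under Dusp5. Small nucleolar RNA genes had 1 higher (1.49%) and 1 lower (1.49%) of 67. These classes of short, repeated genes were chosen after the values were seen, their copies can share reads, and no test of the classes was made.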
